A study of Mus musculus with 6 samples.

Results

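Double negative (DN) T cells of normal mouse kidney were compared with CD4 T cells of normal kidney, with 1 single-cell library of each. Both libraries came from male wild-type C57BL/6J mice aged 7 to 8 weeks that had no ischemia. Kidney mononuclear cells had been sorted as live CD45+ cells carrying the αβ T cell receptor, stained with antibody clone H57-597, and then by CD4 and CD8 surface protein. DN cells lacked both proteins. A library of CD8 T cells from normal kidney served as the other sorted subset, and DN and CD4 libraries from kidneys after ischemia-reperfusion (IR, 30 min of clamping of both renal pedicles) gave the same contrast in libraries of their own. How many mice stood behind each library is not given in the sources used here. Barcodes were members when they had at least 500 detected genes, at most 20% of their unique molecular identifiers (UMIs) in mitochondrial genes, and at least 1 UMI of Cd3d, Cd3e or Cd3g, which encode invariant chains of the T cell receptor. In all, 9309 of 9525 DN barcodes and 9518 of 10090 CD4 barcodes met this rule, 18827 cells of the 54039 barcodes of the series. Their median depth was 8554 UMIs per cell in DN and 7267 in CD4. UMIs were added up within each library and expressed as counts per 1000000 (CPM) of the UMIs left after mitochondrial genes, ribosomal protein genes and Malat1 had been removed, which were 69741312 UMIs in DN and 58703574 in CD4. No group had a replicate, so no difference below was tested, and every interval covers counting error only. A summed level can differ because more cells carry a transcript or because each carries more of it, and shares of cells are given beside the levels for that reason.

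Most αβ T cells carry CD4 or CD8, the coreceptors that bind MHC class II and class I and bring the kinase Lck to the T cell receptor. DN T cells carry the receptor without either coreceptor, are rare in lymph nodes and blood, and make up a larger part of the T cells of the kidney. Several kinds of αβ T cell can lack both coreceptors, among them many invariant NKT cells, and T cells of non-lymphoid tissue often carry receptors first described on natural killer (NK) cells.

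The DN and CD4 libraries were alike in most genes. Of 8893 genes at 10 CPM or more in at least 1 of the libraries, 8263 (92.9%) lay within 1.5-fold of each other and 7319 (82.3%) within 1.25-fold. A call required 10 CPM or more in whichever library held more of the gene, and a difference of 2-fold or more. By this rule 113 genes (1.27%) were higher in DN and 121 (1.36%) were lower. Beyond 4-fold, 37 genes were higher and 29 lower, and beyond 8-fold, 16 and 14. Of the 8466 genes that reached 10 CPM in both libraries, 60 (0.709%) were higher and 66 (0.78%) were lower, so the other called genes were under 10 CPM in the library in which they were low. The genes just past the limit were Tmem176b (30.1 CPM in DN and 14.99 in CD4), Enpp4 and Samd3 on the higher side and Tspan13 (54.9 and 110 CPM), Themis and Cd86 on the lower side. Just inside it lay Ifitm10, 2900060B14Rik and Ccdc146, and Il6st, Slamf1 and Nckap1. For scale, the same rule gave 612 genes (6.79%) either way between DN and CD8 and 385 (4.30%) between CD4 and CD8, beside 234 (2.63%) between DN and CD4. These 3 pairs share libraries.

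**Figure D1:**
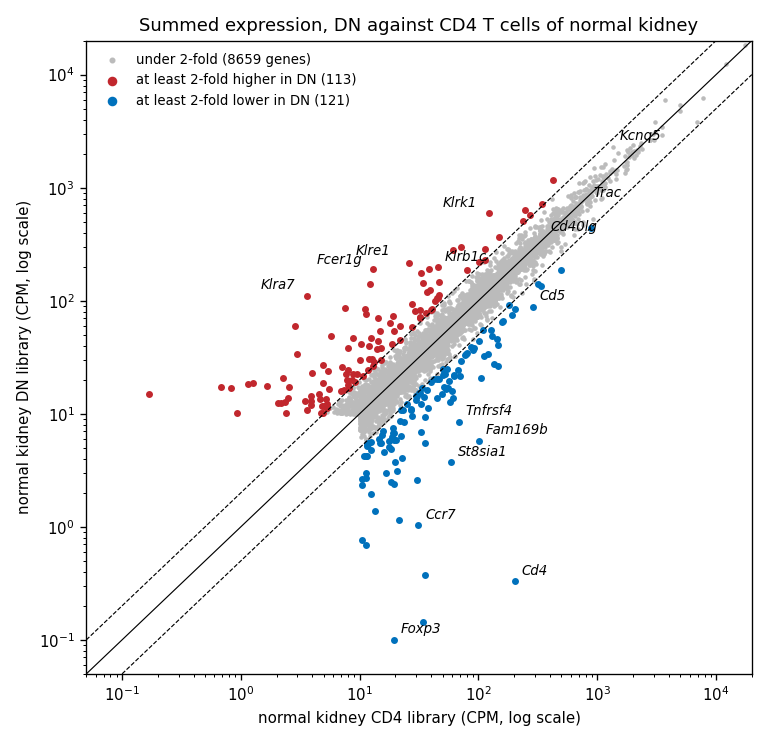
Summed expression of each of 8893 genes in the CD4 (x axis) and DN (y axis) libraries of normal kidney, in CPM on log scales, with the solid line at equal levels and the dashed lines at 2-fold. The 113 genes above the upper dashed line include the NK receptors and Fcer1g, the 121 below the lower one include Cd4, and the other 8659 lie along the diagonal.

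The T cell receptor machinery was shared. Cd4, on chromosome 6 from 124864692 to 124888221 (mm10), was at 0.330 CPM (23 UMIs) in DN and 203 CPM in CD4, as the sort had set it, and Cd8a was at 0.186 and 0.0511 CPM against 853 CPM in CD8. Apart from Cd4, none of the other 10 genes of the sort and receptor complex list that reached 10 CPM was called, and Cd8a and Cd8b1 did not reach it. Trac, the constant segment of the receptor α chain, was at 718, 819 and 824 CPM in DN, CD4 and CD8. Trbc1 and Trbc2, those of the β chain, were at 853 (Trbc1) and 1696 CPM (Trbc2) in DN, beside 851 and 1767 CPM in CD4. Cd3d, Cd3e and Cd3g, which had also served to choose the cells, differed by at most 0.44 on the log2 scale. Cd247, the ζ chain that carries most of the activation motifs, was the lowest after Cd4 among the members at 10 CPM, at 273 CPM in DN and 498 in CD4 (log2 ratio -0.87). Cd247 passed 2-fold when cells with a Klrb1c or Fcer1g UMI were left out (log2 ratio -1.01). It also did in IR kidney, at 124 CPM in DN and 304 in CD4 (-1.29). The messages of the receptor itself were thus at like levels with and without the coreceptor message, with Cd247 lower in DN.

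Of the 18 genes of proximal receptor signalling, all of which reached 10 CPM, 16 were not called, 15 lay within 1.5-fold and 2 (11.1%) were lower, against 0.78% of all genes at 10 CPM in both libraries. The kinase Lck (597 CPM in DN, 622 in CD4) and the adaptor Lcp2 (264 and 297 CPM) were at nearly equal levels. The 2 lower genes were Cd5, a surface protein that dampens receptor signals (88.6 CPM in DN, 289 in CD4, 197 in CD8), and Themis, which is needed for T cell selection in the thymus (443, 886 and 1226 CPM). Cd6, a relative of Cd5, was at 150 and 294 CPM and just missed the limit. In IR kidney Cd5 was at 45.7 CPM in DN and 156 in CD4, while Themis was at 151 and 250 CPM and no longer reached 2-fold. Nor did Themis in normal kidney when cells with a Klrb1c or Fcer1g UMI were left out (log2 ratio -0.81).

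Most NK receptors were higher in DN than in CD4. Of 26 genes on the list, 5 stayed under 10 CPM in both libraries, 18 were higher in DN, 3 were not called and 0 were lower. A gene that is low in CD4 enters this count only if it is high in DN, so genes at 10 CPM in both libraries were also counted. Of these, 8 of 11 NK receptors (72.7%) were higher, against 0.709% of all genes. This list, like the others, was written with earlier results of these data known. It holds Klrb1c, Klre1 and Klrc1, which the study had named for DN cells from these libraries. Shares of lists are therefore descriptions and no independent evidence. The median log2 ratio of these 11 was 2.11, beside -0.00241 over all genes at 10 CPM in both libraries. The 5 genes under 10 CPM were also at larger levels in DN, with Klrb1a at 4.53 CPM in DN and 0.204 in CD4, and Klri1 at 5.41 and 0.187 CPM.

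Klrb1c, the gene of the NK1.1 antigen, was at 197, 45.6 and 5.78 CPM in DN, CD4 and CD8 (log2 ratio of DN over CD4 2.11, 95% interval 2.05 to 2.17). Klrk1, the activating receptor NKG2D, was at 593, 123 and 209 CPM in DN, CD4 and CD8 (log2 ratio 2.27). Klrd1 (CD94) pairs with NKG2 chains encoded by Klrc1 and Klrc2, and had 300 CPM in DN (log2 ratio 2.08). Klrc1 and Klrc2 had 282 and 177 CPM in DN, beside 61.4 and 32.8 CPM in CD4. Levels in DN were thus 4.23 to 5.40 times those in CD4 for this receptor and its chains. Klre1, a receptor that signals as a partner of Klri chains, was at 214, 25.8 and 33.0 CPM in DN, CD4 and CD8 (log2 ratio 3.05). Members of the Ly49 family, lectin-like receptors for MHC class I, had large ratios too: Klra7 was at 110, 3.61 and 19.3 CPM in DN, CD4 and CD8 (log2 ratio 4.93, interval 4.73 to 5.13), Klra5 at 60.3, 2.86 and 2.69 CPM, Klra1 at 140, 12.2 and 5.41 CPM, and Klra9 at 85.4, 7.55 and 6.52 CPM. The Klra, Klrc and Klrb1 genes are close copies of each other, so counts could be split between members and single members are less certain than the family. Not all NK receptors followed. Cd226, an adhesion and activating receptor of most T cells, was at 1190 CPM in DN and 1021 in CD4, Klrg1 at 16.2 and 19.5 CPM, and Klrb1f at 36.0 and 20.9 CPM, although Klrb1f passed 2-fold without cells with a Klrb1c or Fcer1g UMI (log2 ratio 1.06). Of the receptors called higher, Cd160 and Klrd1 were also at 241 and 260 CPM in CD8, near or above their DN levels, whereas Klrb1c, Klra1, Klra5 and Klra9 were low in CD8 as well.

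Some of the adaptors through which such receptors signal were higher in DN as well. Fcer1g, the γ chain of Fc receptors, which lends an activation motif to receptors that have none, lies on chromosome 1 from 171229572 to 171234365. It was at 190 CPM (13225 UMIs) in DN, beside 12.9 in CD4 and 13.1 in CD8 (log2 ratio of DN over CD4 3.87, interval 3.77 to 3.98). Tyrobp (DAP12), which does the same for other receptors, was at 49.1, 5.79 and 9.14 CPM. Clnk, an adaptor related to Lcp2, was at 85.0, 11.1 and 4.41 CPM, and Lyn, a Src family kinase, at 24.3, 8.04 and 5.01 CPM. These were the 4 genes called higher of 7 at 10 CPM on the list of adaptors and partners, and 0 were lower. Tyrobp and Lyn reached 10 CPM through DN alone, and of the 5 genes at 10 CPM in both libraries 2 (Fcer1g and Clnk, 40.0%) were higher, against 0.709% of all genes. Hcst (DAP10), the partner of NKG2D, was at 897 and 637 CPM and was not called, nor were Sh3bp2 and Sh2d1a. Syk, the kinase that binds these motifs, was among the 5 members under 10 CPM.

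**Figure D2:**
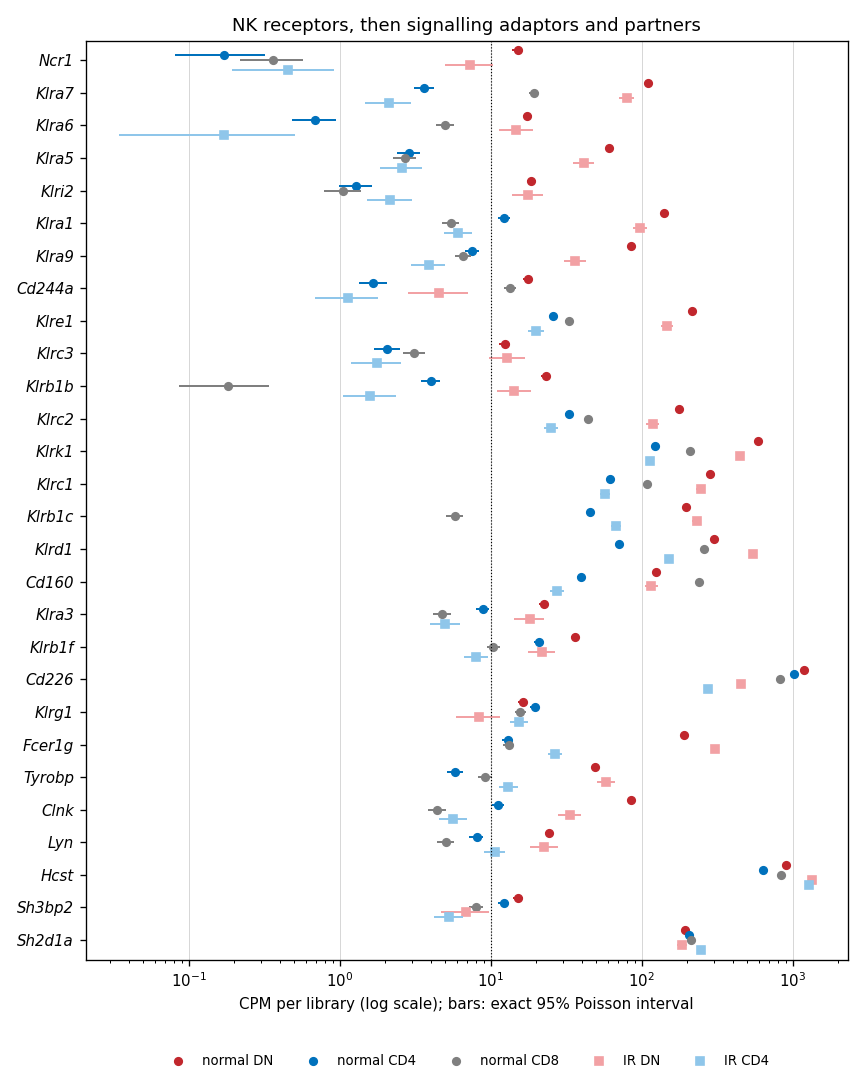
Levels of the 21 NK receptors and 7 adaptors or partners at 10 CPM, in CPM on a log scale, 1 point per library, with circles for normal and squares for IR kidney and exact 95% Poisson intervals as bars. The dotted line marks 10 CPM, and the DN points of both conditions lie to the right of the CD4 points of the same condition for the 18 receptors called higher, Fcer1g, Tyrobp, Clnk and Lyn.

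Many of these genes are neighbours. On chromosome 6, between the starts and ends of Klrb1a and Klra1 (128609227 to 130386874, GRCm38), lie 50 of the genes counted. Of these, 21 reached 10 CPM and 16 were higher in DN, 14.2% of all 113 genes called higher, and 0 were lower. At 10 CPM in both libraries, 7 of 12 (58.3%) were higher, against 0.709% of all genes. The 5 neighbours that were not called were Clec2i, Klrb1f, Clec2d, 2310001H17Rik and Cd69, and Cd69, an early activation and residency marker, was at 430 CPM in DN and 421 in CD4. A higher level in DN was thus not shared by every gene of the segment.

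The promoters of 3 genes higher in DN are shown as examples of windows that hold a match, and were settled on after matches had been counted. Each is a RefSeq window of 300 bases (250 before and 50 from the transcription start, GRCm38.p6), printed 5′ to 3′ on the gene's strand, with TGTGGT, the core letters bound by RUNX factors, in capitals. Fcer1g lies on the minus strand at chr1:171234300-171234599, Klrb1c on the minus strand at chr6:128788592-128788891, and Klre1 on the plus strand at chr6:129577963-129578262.
Fcer1g: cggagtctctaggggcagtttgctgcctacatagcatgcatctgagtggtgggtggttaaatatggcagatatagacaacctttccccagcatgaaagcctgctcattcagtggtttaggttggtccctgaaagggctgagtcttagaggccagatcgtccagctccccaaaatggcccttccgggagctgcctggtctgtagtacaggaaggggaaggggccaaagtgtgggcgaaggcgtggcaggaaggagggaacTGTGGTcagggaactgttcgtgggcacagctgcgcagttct
Klrb1c: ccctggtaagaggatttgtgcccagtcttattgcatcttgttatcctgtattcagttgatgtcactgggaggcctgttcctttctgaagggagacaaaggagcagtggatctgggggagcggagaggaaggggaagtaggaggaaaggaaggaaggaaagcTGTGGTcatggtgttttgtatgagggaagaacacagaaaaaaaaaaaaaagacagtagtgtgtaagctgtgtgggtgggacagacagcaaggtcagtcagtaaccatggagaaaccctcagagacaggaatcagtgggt
Klre1: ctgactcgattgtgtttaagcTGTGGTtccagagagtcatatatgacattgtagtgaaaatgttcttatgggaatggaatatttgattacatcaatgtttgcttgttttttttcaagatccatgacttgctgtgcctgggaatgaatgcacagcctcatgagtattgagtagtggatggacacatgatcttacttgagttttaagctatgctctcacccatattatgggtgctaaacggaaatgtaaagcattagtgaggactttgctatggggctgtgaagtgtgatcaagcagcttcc
The 1 match in each window begins at base 10 of the transcribed part in Fcer1g, 89 bases before the start in Klrb1c and 229 bases before it in Klre1, counted to its first letter. Klre1 has another start in the table, whose window holds no match. Windows were found by symbol for 73 of the 113 genes higher in DN, some with more than 1 start (95 windows), and for 89 of the 121 lower genes (115 windows). In all, 11 motifs were searched, and TGTGGT is described first because its share stood out among them. TGTGGT or its reverse complement ACCACA was in 35.8% of windows of the higher genes, 7.83% of windows of the lower genes, 12.5% of those of all genes at 10 CPM and 16.8% of all 32851 windows. Without the NK receptor list, whose members are copies of each other, the share was 30.1% of 73 windows. The share was 27.3% for the genes at like levels in DN and CD4 and lower than in CD8 (55 windows), and 17.6% for those higher than in CD8 (125 windows), so a share above that of all genes at 10 CPM was not particular to the genes higher in DN. Windows of the higher genes also held less G and C, with a median of 51.7% against 58.7% for the lower genes and 61.0% for all genes at 10 CPM, and its part in the shares was not tested. The T-box letters GGTGTGA were in 5.26% of the higher and 6.96% of the lower windows (3.19% at 10 CPM), the GATA letters AGATAA in 11.6% and 7.83% (6.26%), and the AP-1 letters TGACTCA in 10.5% and 4.35% (3.42%), each with its reverse complement. Without the NK receptor list the AP-1 share of the higher windows was 6.85%. The other 7 motifs, searched in the same way, are given as shares of the higher, the lower and the 10 CPM windows. TGTGGTT, which contains TGTGGT, was in 14.7%, 1.74% and 3.71%, and the related letters TGTGGC were in 20%, 20% and 17.9%. Without the NK receptor list the TGTGGTT share of the higher windows was 9.59%. The longer T-box letters AGGTGTGA were in 1.05%, 3.48% and 0.808%, and the octamer ATGCAAAT in 3.16%, 0.87% and 1.17%. The cyclic AMP response letters TGACGTCA were in 0 of the higher windows, 0.87% and 3.3%, the ETS letters ACAGGAAG in 5.26%, 2.61% and 3.6%, and the NFAT core TTTCC in 63.2%, 54.8% and 59.6%. A match of letters describes the window and does not show that a factor binds there.

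Among cytotoxic genes the granule messages Gzma, Gzmb and Prf1 were higher in DN and Gzmk was lower, and 12 of the 16 genes at 10 CPM were not called. Gzmk reached 10 CPM through CD4 alone, and of the 15 genes at 10 CPM in both libraries 3 (20%) were higher, against 0.709% of all genes. Gzma was at 76.6 CPM in DN and 11.3 in CD4, Gzmb at 69.9 and 14.4, and Prf1, which encodes perforin, at 54.5 and 14.9 CPM. All 3 were higher still in CD8, at 240, 173 and 122 CPM. Gzmk was at 3.13, 20.7 and 172 CPM in DN, CD4 and CD8. Fasl, the death ligand, was at 237 CPM in DN and 134 in CD4 and Nkg7, a granule protein, at 1145 and 784 CPM, both under 2-fold.

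Secreted cytokines were mostly at like levels. Of 13 genes at 10 CPM, Fgl2 was higher and Il2 and Tnfsf11 were lower in DN. These were 8.33% and 16.7% of the 12 genes at 10 CPM in both libraries, against 0.709% and 0.78% of all genes. Ifng, the main type 1 cytokine, was at 473 CPM in DN and 444 in CD4, Tnf at 120 and 141 CPM, and Ltb at 838 and 880 CPM. Fgl2, a secreted protein with suppressive effects on T cells, was at 577, 270 and 174 CPM in DN, CD4 and CD8. Il2, the T cell growth factor, was at 20.5 and 44.8 CPM and Tnfsf11 (RANKL) at 24.8 and 50.6 CPM. Of the 9 members under 10 CPM, Il17a had no UMI in DN and was at 0.426 CPM in CD4. Of 6 chemokines, Ccl1 (105 CPM in DN, 45.3 in CD4), Ccl3 (11.99 and 3.92 CPM) and Ccl4 (85.2 and 40.4 CPM) were higher, and Xcl1, which attracts cross-presenting dendritic cells, was at 802, 417 and 393 CPM in DN, CD4 and CD8 (log2 ratio 0.95). Ccl3 reached 10 CPM through DN alone, and of the 5 chemokines at 10 CPM in both libraries 2 (Ccl1 and Ccl4, 40.0%) were higher, against 0.709% of all genes. Ccl3 and Ccl4 were at 82.1 and 666 CPM in CD8. When all cells with a Klrb1c or Fcer1g UMI were left out of both libraries, Ccl3 was no longer higher in DN (log2 ratio -0.15), and Ccl4, Lyn, Il2 and Tnfsf11 fell short of 2-fold. Ccl1 (log2 ratio 0.45), Il2, Fgl2 and Tnfsf11 fell short of it when barcodes with a UMI of a B cell or myeloid gene were left out. That step removed 59.5% of DN and 50.8% of CD4 cells, and the B cell list includes Ighm, which had UMIs in all 3 libraries.

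Transcripts of the T cell receptor γ locus were higher in DN, although the sort was for the αβ receptor. Tcrg-C1, Tcrg-C2 and Tcrg-C4, constant segments of the γ chain, were at 63.6, 147 and 120 CPM in DN, beside 18.1, 46.5 and 37.1 CPM in CD4, and the variable segment Trgv2 was at 191 and 38.6 CPM (log2 ratio 2.31). These were the 4 genes at 10 CPM of 9 on the γδ T cell list. Trdc, the δ chain constant segment, which γδ T cells need and αβ T cells delete on rearranged alleles, was at 2.84, 3.53 and 5.25 CPM in DN, CD4 and CD8. The γ transcripts were therefore higher in DN while the δ transcript was low in all 3 libraries. Reads in the γ segments can be shared between close copies, as with the Klr genes. In the γ locus on chromosome 13 (19178024 to 19352756) all 6 genes at 10 CPM were higher in DN, and so were the 4 at 10 CPM in both libraries, which are those of the list, against 0.709% of all genes.

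Markers of invariant NKT cells were present in both libraries. Zbtb16 (PLZF), the transcription factor of innate-like T cells, was at 266, 217 and 2.14 CPM in DN, CD4 and CD8. Trbv13-2, which encodes a β chain segment often used with the invariant α chain, was at 17.1 CPM in DN and 8.82 in CD4 (log2 ratio 0.95). Trav11, the segment of the invariant α chain itself, was at 4.57 and 3.63 CPM and at 0.0908 CPM in CD8. Of the 5 genes on this list, 2 reached 10 CPM and neither was called with all cells. When cells with a Klrb1c or Fcer1g UMI were left out, Trbv13-2 passed 2-fold (log2 ratio 1.33) and Zbtb16 did not (0.82).

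The naive or recirculating list had 4 lower genes of 12 and 0 higher. Ccr7, Igfbp4 and Dapl1 reached 10 CPM through CD4 alone, and of the 9 genes at 10 CPM in both libraries 1 (Tcf7, 11.1%) was lower, against 0.78% of all genes. Ccr7, the lymph node homing receptor, was at 1.03, 31.2 and 80.5 CPM in DN, CD4 and CD8 (log2 ratio -4.92). Igfbp4 was at 0.143, 33.9 and 33.4 CPM, Dapl1 at 2.60, 30.5 and 145 CPM, and Tcf7 (TCF1), a transcription factor of naive and memory T cells, at 84.7, 203 and 297 CPM. S1pr1, the egress receptor, was at 32.6 CPM in DN and 63.6 in CD4, and Klf2, which drives it, at 269 and 403 CPM, both under 2-fold. Both passed 2-fold when cells with a Klrb1c or Fcer1g UMI were left out (log2 ratios -1.85 and -1.49). In IR kidney 7 of the 12 genes were lower in DN, against 2.47% of all genes. S1pr1 was at 42.2 CPM in IR DN and 269 in IR CD4. With all cells of normal kidney, the 8 list genes other than the 4 lower ones were not called. CD8 cells held the most of Ccr7, Dapl1 and Tcf7.

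The regulatory T cell list had 4 lower genes of 11 at 10 CPM and 0 higher. Foxp3 and Tnfrsf4 reached 10 CPM through CD4 alone, and of the 9 genes at 10 CPM in both libraries 2 (Ctla4 and Izumo1r, 22.2%) were lower, against 0.78% of all genes. Foxp3, the defining transcription factor of that lineage, was at 0.100 CPM (7 UMIs) in DN, beside 19.4 in CD4 and 0.109 in CD8. Tnfrsf4 (OX40), a costimulatory receptor, was at 8.53, 68.4 and 4.65 CPM, Ctla4 at 46.1, 144 and 101 CPM, and Izumo1r (FR4) at 38.4, 92.3 and 24.8 CPM. Other members were level with all cells: Ikzf2 (Helios) was at 366 CPM in DN and 395 in CD4, Il2ra at 58.8 and 48.3 CPM, and Tnfrsf18 (GITR) at 213 and 207 CPM. When cells with a Klrb1c or Fcer1g UMI were left out, Ikzf2 (log2 ratio -0.66) and Il2ra (0.60) lay more than 1.5-fold apart and Tnfrsf18 (0.09) did not. When barcodes with a UMI of a B cell or myeloid gene were left out, Izumo1r fell short of 2-fold, and the log2 ratios of Tnfrsf4, Ctla4 and Foxp3 moved from -3.00, -1.65 and -7.60 to -1.93, -1.01 and -5.40. In the thinned cells Foxp3 UMIs were found in 140 of 9375 CD4 cells (1.49%) and in 2 of 9264 DN cells (0.0216%).

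Among the 15 genes with the smallest ratios at 50 CPM, Cd4 came first (log2 ratio -9.26). Fam169b followed at 5.79, 101 and 203 CPM in DN, CD4 and CD8 (log2 ratio -4.12). St8sia1, which makes the ganglioside GD3, was at 3.71, 58.7 and 49.4 CPM (-3.98). Il6ra, the receptor for interleukin 6, was at 13.7, 61.6 and 48.5 CPM, and Slamf6, an adhesion receptor of the SLAM family, at 21.4, 69.6 and 92.0 CPM. In each of these 4 genes CD8 lay nearer to CD4 than DN did on the log scale. Fam169b was itself higher in CD8 than in CD4 (log2 ratio of CD4 over CD8 -1.01). The others were Tnfrsf4, Gm8369, BE692007, Gm20275, Cpm (carboxypeptidase M), Rnf43, a ubiquitin ligase that curbs Wnt receptors, Il31ra, St6gal1, a sialyltransferase, Bag3, a partner of heat shock proteins, and Cd5, with log2 ratios between -3.00 and -1.71. Gm20275 may be counted together with a gene on the other strand, since use of strand in counting was not given.

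Further lists held few called genes, some of which reached 10 CPM in 1 library alone. At 10 CPM in both libraries, 2 of 21 lineage transcription factors (9.52%), 1 of 10 chemokine and egress receptors (Gpr183, 10.0%), 1 of 19 cytokine receptors (5.26%), 1 of 12 costimulatory and coinhibitory receptors (Ctla4, 8.33%), 1 of 6 SLAM family genes (Slamf6, 16.7%) and 0 of 8 brakes on MAP kinase signalling were lower, against 0.78% of all genes. Of the 8 brakes, 1 (Spry2, 12.5%) was higher, against 0.709%. Of 24 lineage transcription factors at 10 CPM, Foxp3, Tcf7, Tox2 and Irf4 were lower and 0 were higher. Irf4 fell short of 2-fold when either set of barcodes named above was left out. Tbx21 (T-bet) was at 361 CPM in DN and 293 in CD4, Gata3 at 194 and 171 CPM, and Id2 at 1529 and 1121 CPM. Eomes stayed under 10 CPM in both. Among 12 chemokine and egress receptors Ccr7 and Gpr183 were lower (Gpr183 64.2 and 157 CPM), and Cxcr6, a receptor of tissue lymphocytes, was at 1122 and 772 CPM. Il6ra was the 1 lower of 19 cytokine receptors, where Il2rb was at 654 and 460 CPM and Il12rb2 at 452 and 301 CPM. Tnfrsf4 and Ctla4 were the 2 lower of 14 costimulatory and coinhibitory receptors, and Icos was at 323 and 341 CPM. In the SLAM family Cd244a (2B4) was higher (17.6 and 1.67 CPM) and Slamf6 lower among 7 genes. Of 10 brakes on MAP kinase signalling, Spry2 was higher (73.5 and 19.0 CPM) and its relative Spry1 (1.39 and 13.4 CPM) and Dusp4 were lower. Dusp4 (log2 ratio -1.12) fell short of 2-fold without the top 5% of barcodes by UMIs (-0.94), without barcodes with a B cell or myeloid UMI (-0.98) and as a mean over cells (-0.97).

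No gene was called on 5 further lists. They were the 11 tissue-resident genes at 10 CPM (median log2 ratio 0.29), 13 potassium and calcium channels (-0.05), 15 immediate early genes (-0.03), 9 interferon-stimulated genes (-0.22) and 8 cell cycle genes (-0.65). Itga1 (CD49a), an integrin of resident lymphocytes, was at 380 CPM in DN and 249 in CD4, and Itgae (CD103) stayed under 10 CPM in both. Jun was at 2236 and 1892 CPM and Fos at 1322 and 1180 CPM. Mki67, a marker of dividing cells, was at 46.9 and 72.8 CPM, and the log2 ratios of all 8 cell cycle genes were below 0, from -0.85 for Tyms to -0.05 for Pcna. Of 9 heat shock genes only Bag3 was called (lower, 32.6 and 111 CPM), a share of 11.1% of the list against 0.78% of all genes at 10 CPM in both libraries, while Hspa8 was at 2143 and 2151 CPM. Kcnq5, a voltage-gated potassium channel gene on chromosome 1, was the channel gene with the largest ratio, at 2295, 1370 and 127 CPM in DN, CD4 and CD8 (log2 ratio of DN over CD4 0.74, under the limit).

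What DN shared with CD4 and not with CD8 was counted by a rule of its own: both libraries at 10 CPM or more, within 1.5-fold of each other, and at least 2-fold above CD8, or the same below CD8 for genes at 10 CPM in CD8. Of 9085 genes at 10 CPM in any of the 3 libraries, 126 (1.39%) were shared and higher and 54 (0.594%) shared and lower. Members of the lists among the first group are given by name. Cd40lg (CD40 ligand), which licenses B cells and dendritic cells, was at 359, 356 and 34.1 CPM in DN, CD4 and CD8. Il4, the type 2 helper cytokine, was at 112, 96.4 and 0.127 CPM. Zbtb7b (ThPOK), the factor that commits thymocytes to the CD4 lineage, was at 58.9, 51.5 and 8.54 CPM, so DN cells held as much of it as CD4 cells while Cd4 itself was near absent. Zbtb16 (266, 217 and 2.14 CPM), Maf (472, 419 and 68.6 CPM), a factor of several helper subsets, and Il2ra (58.8, 48.3 and 7.10 CPM) followed the same order. The other 6 of the 12 genes with the largest distance from CD8 were Ly6c1, Mmp9, Itgb3, Podnl1, Ckb and Tbc1d4, for which the lower of DN and CD4 was 5.53 to 149.7 times the CD8 level. Beyond these 12, the list members Icos, Ikzf2, Tnfrsf18, Runx1, Rora, Ccr4, Capg, Cd81 and Zfp683 met the rule too.

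Genes shared at lower levels than in CD8 were led by Gm44174, at 0.0717, 0.0681 and 315 CPM in DN, CD4 and CD8. It lies on chromosome 6 from 71353035 to 71373284. The cells had been sorted by CD8, and the part of that sort in its level was not tested. Ccl5, a chemokine of effector cells, was at 1619, 1172 and 7321 CPM. Nr4a2, an orphan nuclear receptor, was at 82.6, 89.5 and 266 CPM and Cst7 (cystatin F), which restrains granule proteases, at 42.6, 30.7 and 118 CPM. Plek, Ier5l, Fgf13, Slc25a4, Ms4a4c, Hmgn1 and Tmem163 were also among the 12 genes farthest below CD8. When cells with a Klrb1c or Fcer1g UMI were left out, 96 of the 126 and 33 of the 54 genes still met the rule. DN and CD4 then lay more than 1.5-fold apart for Il4, Zbtb16, Il2ra, Ckb and Ly6c1 (log2 ratios 0.60 to 0.92) and for Nr4a2, Fgf13, Ms4a4c, Plek and Slc25a4 (-1.12 to -0.66). Cd40lg (0.09), Maf (0.54) and Zbtb7b (0.33) stayed within 1.5-fold. Of the further list members named above, Ikzf2 (-0.66) and Capg (-0.82) also came to lie more than 1.5-fold apart.

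**Figure D3:**
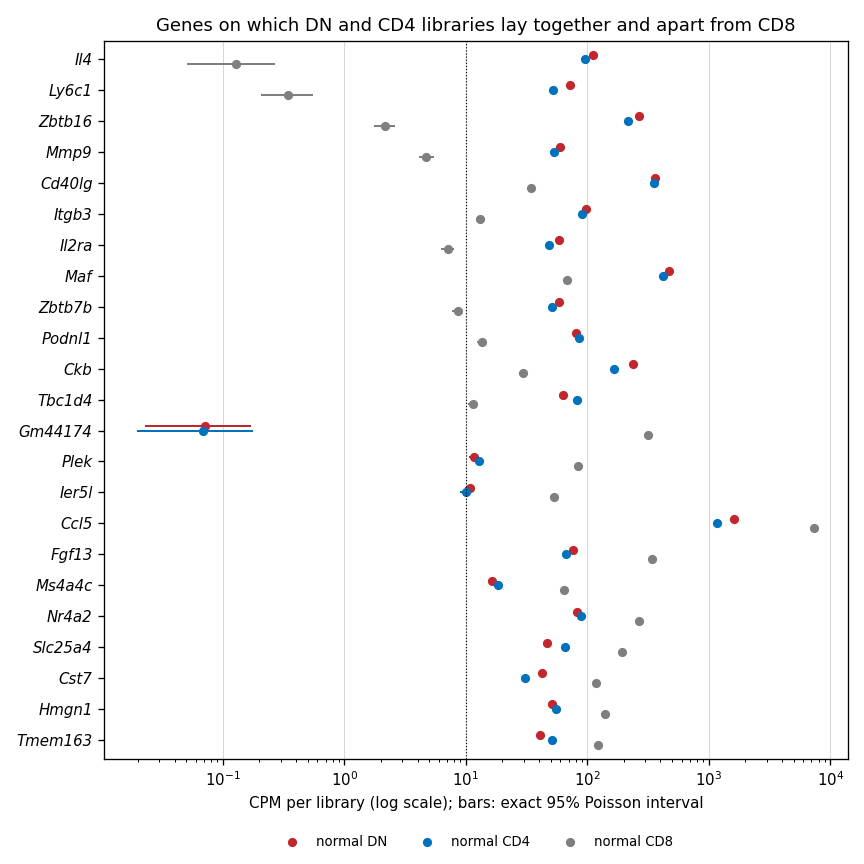
Levels in the 3 libraries of normal kidney for the 12 shared genes farthest above CD8 (top) and 11 of the 12 farthest below it (bottom), in CPM on a log scale with exact 95% Poisson intervals as bars. The DN and CD4 points of each gene lie within 1.5-fold of each other, as the rule requires, and the CD8 point lies apart on the left for Il4 to Tbc1d4 and on the right for Gm44174 to Tmem163.

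Shares of cells with a UMI were compared after each cell had been thinned to 1000 retained UMIs, which left out 45 DN and 143 CD4 cells that were shallower. Median retained depth before thinning was 6707, 5668.5 and 5155 UMIs in DN, CD4 and CD8, and shares without thinning are given for the first genes. Fcer1g was found in 12.3% of DN cells (exact 95% interval 11.7 to 13.01%; 25.6% unthinned), 0.885% of CD4 cells (3.05% unthinned) and 0.802% of CD8 cells, so the CD4 share was close to that of CD8 cells. Klrb1c was found in 16.7% of DN, 3.87% of CD4 and 0.395% of CD8 cells, and unthinned in 45.6%, 12.3% and 1.68%. Klrk1 was found in 34.8%, 8.33% and 14.7%, and Klra7 in 5.84%, 0.213% and 0.907%. These receptors and Fcer1g were therefore detected in more DN cells, and none of them in most DN cells at this depth. Kcnq5 was found in 70.9% of DN, 41.7% of CD4 and 7.69% of CD8 cells, and Xcl1 in 42.1%, 23.8% and 21.7%. Cd40lg (28.4% of DN, 27.3% of CD4) and Il4 (7.93% and 6.18%) were found in like shares of DN and CD4 cells and Zbtb16 in 19.2% and 13.9%. Cd5 was found in 7.88% of DN and 22.6% of CD4 cells and Tcf7 in 7.33% and 16.4%. Cd4 UMIs were in 1 of 9264 DN cells and in 18.9% of CD4 cells, although the sort had selected CD4 cells by the protein.

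**Figure D4:**
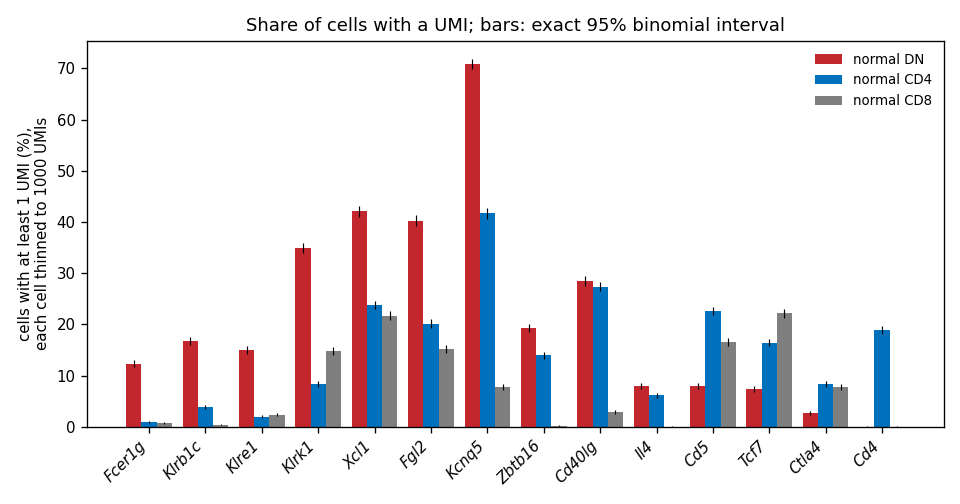
Share of cells with at least 1 UMI of each gene in the DN, CD4 and CD8 libraries of normal kidney, in percent, after thinning each cell to 1000 UMIs, with exact 95% binomial intervals. Fcer1g, Klrb1c, Klre1 and Klrk1 are found in more DN cells than CD4 cells, Cd40lg and Il4 in like shares, and Cd5, Tcf7, Ctla4 and Cd4 in more CD4 cells.

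Within the DN library, NK receptor and adaptor messages tended to lie in the same cells. Of thinned DN cells with a Klrb1c UMI, 25.2% also had a Fcer1g UMI, against 9.74% of those without. Klre1 was found in 40.9% of DN cells with Fcer1g and in 11.4% of the others. Kcnq5 took another course: it was in 60.5% of DN cells with Fcer1g and in 72.4% of those without. In CD4 cells the order was the reverse, with Kcnq5 in 57.8% of the 83 cells with Fcer1g and in 41.5% of those without. In CD4 cells Klrb1c was found in 7.96% of cells with Kcnq5 and 0.951% of cells without, and in DN cells in 17.9% and 13.8%. In IR kidney the same shares pointed the same way for Fcer1g with Klrb1c (23.5% against 13.6% of DN cells) and for Kcnq5 with Fcer1g (30.2% against 48.0% of DN cells, and 28.6% against 19.8% of CD4 cells). These shares are over cells of 1 library each and are given as descriptions.

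When the 4910 DN and 1357 CD4 cells with a Klrb1c or Fcer1g UMI were left out, 111 genes were higher in DN and 137 lower, and 75 and 99 of them were also among the 113 and 121 called with all cells. The log2 ratios were 2.20 for Klrk1, 2.43 for Klre1, 4.42 for Klra7 and 2.66 for Trgv2. Those of Tyrobp, Gzma, Gzmb and Ncr1 fell to 1.17, 1.07, 1.24 and 2.65. NK receptors were thus also higher in DN cells that had neither message, although a cell without a UMI can still hold a message.

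The same contrast in IR kidney used libraries that the normal pair did not. There, 431 of 8904 genes (4.84%) were higher and 220 (2.47%) lower in DN. Of the 113 genes higher in normal DN, 90 reached 10 CPM in the IR pair, and 67 of these (74.4%) were at least 2-fold higher there as well, 89 lay above equality and 0 were at least 2-fold lower. Of the 121 lower genes 104 were measured, 80 (76.9%) were at least 2-fold lower, 100 lay below equality and 1 was at least 2-fold higher. Among all 8306 genes at 10 CPM in both pairs, 2.08% were at least 2-fold higher and 2.06% lower in IR DN. Over those measured in the IR pair, the median log2 ratio was 1.59 in normal and 1.39 in IR kidney for the higher genes, and -1.50 and -1.70 for the lower genes. Fcer1g was at 305 CPM in IR DN and 26.8 in IR CD4 (log2 ratio 3.51), Klrb1c at 231 and 67.3 CPM (1.78) and Klra7 at 79.5 and 2.11 CPM (5.24). Gzma (170 and 88.1 CPM, 0.95) and Gzmb (91.8 and 55.0 CPM, 0.74) were closer together than in normal kidney. Cd40lg was level again, at 254 and 242 CPM, and Foxp3, with no UMI in IR DN and 28.2 CPM in IR CD4, was at least 45.3-fold lower. Rapgef4, an exchange factor for Rap proteins that senses cyclic AMP, was the gene that lay 2-fold lower in normal DN (14.02 and 35.1 CPM) and 2-fold higher in IR DN (127 and 54.7 CPM), and Il31ra turned from 33.8 and 121 CPM to 26.4 and 17.2 CPM. The IR libraries were shallower (4815075 and 17566188 retained UMIs) and had been made with a later Cell Ranger version, which cannot be told apart from the condition, but the contrast of DN with CD4 lies within each condition and version.

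**Figure D5:**
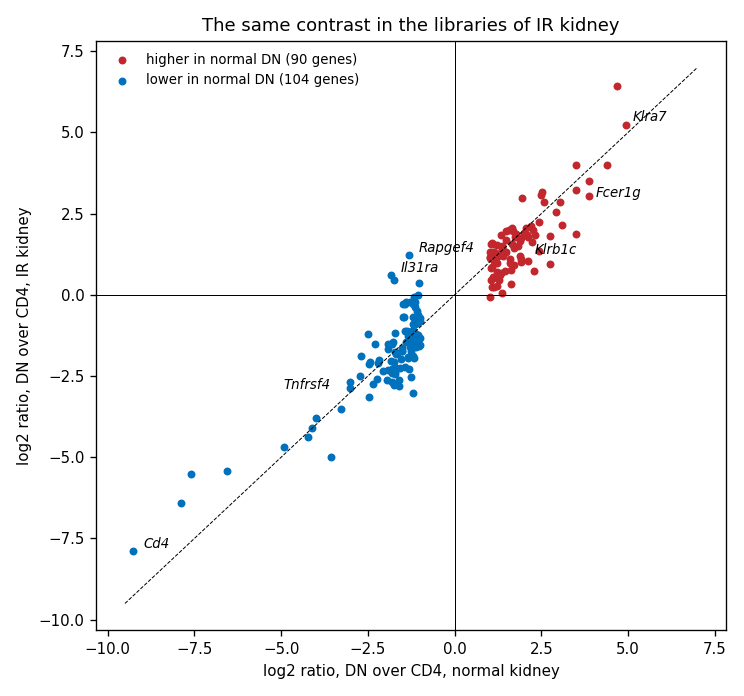
The log2 ratio of DN over CD4 in normal kidney (x axis) and in IR kidney (y axis) for the 90 higher and 104 lower genes that reached 10 CPM in both pairs, with the dashed line at equal ratios. All but 1 of the higher genes lie above 0 in IR kidney and 100 of the lower genes lie below it, with Rapgef4 and Il31ra among the 4 lower genes that do not.

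The study had named 10 genes for DN cells, from a contrast with CD4 and CD8 cells. They were chosen on these libraries, so their direction here is no independent evidence. Of the 10 genes 6 (60%) were higher in DN, against 0.709% of all genes at 10 CPM in both libraries, and 0 lower (median log2 ratio 1.60). The 4 not called were Kcnq5, Xcl1, Lyst and Dusp1. The study also reported qPCR on sorted cells, with Kcnq5 and Klrb1c significantly higher in DN than in CD4 cells. Markers of other cells were low. The 12 myeloid genes summed to 3.33 CPM in DN and 9.76 in CD4 and none reached 10 CPM, the 9 tubule genes summed to 6.34 and 4.82 CPM, and the 5 erythroid genes to 1.94 and 2.04 CPM. Of 7 B cell genes only Ighm reached 10 CPM, at 166, 178 and 157 CPM in DN, CD4 and CD8, while Cd79a and Ms4a1 did not. Of 6 endothelial genes Pecam1, which T cells also express, was lower in DN (48.9 and 131 CPM) and the other 5 stayed under 10 CPM. The class II genes H2-Aa (4.88 CPM in DN, 18.3 in CD4), H2-Ab1, H2-Eb1 and Cd74, named after their values were seen, are defining genes of antigen presenting cells. H2-Aa was lower in DN, as was the myeloid sum. Without barcodes with a B cell or myeloid UMI, 104 genes were higher in DN and 103 lower. Of these, 95 and 93 were also called with all cells. The part of antigen presenting cells in the result was not tested. The NK cell list summed to 363 CPM in DN and 65.2 in CD4, with 5 of its 8 genes at 10 CPM. Of these, 3 reached it through DN alone, and the 2 that reached it in both libraries (Klrb1c and Gzma) were higher in DN, against 0.709% of all genes. Ncr1 (NKp46), present on nearly all NK cells, was at 15.03 CPM in DN and 0.170 in CD4, and Eomes, the other NK cell factor, at 4.46 and 0.869 CPM. Every cell counted had at least 1 Cd3 UMI, since the rule required it. The part of NK cells in the DN library was not tested. The 78 DN barcodes left out for lack of a Cd3 UMI held 861 CPM of the NK cell list and 500 CPM of Fcer1g (68 UMIs), while such CD4 barcodes held 126 CPM of the NK cell list and 1285 CPM of the myeloid list. Of the barcode sequences, 97 were found in both the DN and the CD4 library, and 104 of the DN cells kept had a barcode that was also in another library of normal kidney.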

How the data were processed

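T cells of normal and IR kidney had been sequenced as 6 libraries (10x Genomics 3' chemistry), 1 per sorted subset and condition, with groups read from sample titles. The authors had deposited raw UMI counts for every gene and barcode, made by Cell Ranger on mm10. The submitters' notes name version 6.0.1, and the file headers 5.0.1 for the control and 6.0.1 for the IR libraries. The treatment of intronic reads and strand is not given in the sources used here. Only barcodes that Cell Ranger had called as cells were in the lists, and doublets were not called.

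Cells were kept as described in the report. Mitochondrial genes (13), ribosomal protein genes (90) and Malat1 were left out of the totals, so 32181 of 32285 features remained. Counts were summed per library and scaled to CPM. In ratios, 3 counts replaced a count of 0, a floor of 0.0430 CPM in DN and 0.0511 CPM in CD4. Intervals are exact 95% Poisson intervals for CPM, conditional Clopper-Pearson intervals for ratios and Clopper-Pearson intervals for the cell shares. With 1 library per group no test was made. Cells were thinned without replacement (seed 1).

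Genes named were the members of 30 lists (361 genes), the 15 genes with the largest and the 15 with the smallest ratio at 50 CPM or more, the 12 shared genes farthest above and below CD8 at that level, and genes at the limits of a rule, apart from a few that are not reported here. Members and lists were chosen with earlier results of these data known. Coordinates came from GENCODE M21 (32235 features matched by identifier) and promoters from RefSeq (GRCm38.p6), where 11 motifs were searched. The effects of 15 alternatives are given in the closing section. TMM factors came from edgeR 4.0.16 (R 4.3.3), and the rest used Python 3.11.15, NumPy 2.4.6 and SciPy 1.17.1. The counting rules were tested on simulated data.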

Additional observations from a re-analysis of the deposited data

Results flagged for a closer look

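Rapgef4 met the rule for genes whose contrast of DN with CD4 went in opposite directions in the 2 conditions. Its log2 ratio was -1.32 in normal kidney (14.02 CPM in DN, 35.1 in CD4) and 1.214 in IR kidney (127 CPM in DN, 54.7 in CD4). The ratios rest on 978 and 2058 UMIs in normal and 611 and 961 UMIs in IR kidney. With 1 library per group the difference between the conditions was not tested.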

How the results depend on the processing

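No paired analysis was possible because each group had 1 library and the labels carry no replicate numbers. In the order higher in DN, lower in DN, shared and above CD8, shared and below CD8, higher in IR DN and lower in IR DN, the counts were 113, 121, 126, 54, 431 and 220. They were 342, 288, 310, 176, 875 and 455 with a fold limit of 1.5 and 57, 53, 51, 24, 248 and 106 with a limit of 3. Without a minimum CPM they were 1401, 1619, 628, 485, 2475 and 1035, and with a minimum of 50 CPM 47, 49, 53, 20, 125 and 82. Keeping mitochondrial genes, ribosomal protein genes and Malat1 in the totals gave 35 shared genes below CD8 and 146 lower genes in IR DN. All other counts stayed within 1.5 times, under TMM scaling, without the top 5% of barcodes, without cell filters, without the Cd3 rule, at 10% mitochondrial UMIs, without barcodes found in another library, without barcodes with B cell or myeloid UMIs, without cells with Klrb1c or Fcer1g UMIs, in thinned cells, and as a mean over cells.

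Of 278 named genes at 10 CPM, 1 called gene changed direction under these alternatives (Ccl3, log2 ratio -0.15 without cells with Klrb1c or Fcer1g UMIs). Calls were lost for Il2, Fgl2, Dusp4, Izumo1r, Ccl1, Irf4 and Tnfsf11 without barcodes with B cell or myeloid UMIs (59.5% of DN and 50.8% of CD4 cells) and for Il2, Lyn, Themis, Ccl3, Ccl4, Irf4 and Tnfsf11 without cells with Klrb1c or Fcer1g UMIs. Ccl1 was also lost without the top 5% of barcodes, without shared barcodes, in thinned cells and as a mean over cells, Dusp4 in the first and last of these, Themis in the second and Ccl4 in the third. Of the shared genes, 96 of 126 and 33 of 54 met the rule without cells with Klrb1c or Fcer1g UMIs. Calls were also gained, for 13 named genes without cells with Klrb1c or Fcer1g UMIs (where 22 moved by over 1.5 times), 10 in thinned cells, 8 as a mean over cells, 4 without barcodes with B cell or myeloid UMIs, 3 each under TMM scaling, without the top 5% of barcodes and without shared barcodes, 2 with the removed features kept, and 1 each without cell filters and without the Cd3 rule. The cause was not tested. Genes under 10 CPM in both libraries were not called, and the mice, sort and run behind a library cannot be told apart from its group.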
